A study of Homo sapiens with 5 samples.

Results

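The imprinted growth regulators described here are 10 genes, DLK1, IGF2, CDKN1C, MEG3, H19, KCNQ1OT1, NNAT, PEG10, SNRPN and PEG3, of 36601 genes listed for the grafts. Of these, 9 were among the 33538 genes listed for organoids before grafting, where H19 was not listed. The genes were taken as a family of known imprinted genes, and the cell classes in which they are described were chosen by the measured counts of fixed marker genes in clusters, with none of the 10 genes among the markers or the 2500 genes used for clustering.

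Single-cell RNA was measured in brain organoids from H9, an established human embryonic stem cell line that the labels give as WT and that, by the study's methods, carries a ChR2-EYFP cassette at the AAVS site in every group. D0 was the organoid on culture day 42, before transplantation, and the grafts were such organoids placed in the prefrontal cortex (PFC) or hippocampus (HIP) of young adult immunodeficient SCID mice, read 2 or 4 months post transplantation (2MPT, 4MPT). Each of the 5 groups, D0, HIP_2MPT, PFC_2MPT, HIP_4MPT and PFC_4MPT, was 1 library that pooled several organoids or mice of 1 cell line. D0 was dissociated with TrypLE and all grafts with Trypsin-EDTA, and D0 was counted with another annotation. The grafts were also 2 or 4 months older than D0. Age, these other differences and transplantation therefore cannot be told apart.

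An imprinted gene is read mainly from the copy inherited from only one parent, and such genes tend to lie in clusters that share a control region whose DNA methylation differs between the parental copies. Many of them act on fetal and placental growth, with paternally expressed genes often favouring growth and maternally expressed genes often restraining it. In the developing brain they are known in neural stem cell maintenance, cell cycle exit and neuronal differentiation.

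After filtering, 34390 human cells remained, 4885 in D0 and 5952 to 8363 in each graft. Depth differed, with 55892222 UMIs (unique molecular identifiers, 1 per captured transcript) in D0 and 11192237 to 21459173 in the grafts, and with a median of 9847 UMIs per cell in D0 against 1253 to 2759. The median mitochondrial share was 2.35% to 3.77% in 4 libraries and 7.31% in PFC_4MPT. Pairs of libraries shared 6 to 20 cell barcodes. Levels are UMIs of a gene in every 1000000 UMIs of the library or cell class (CPM), with exact 95% Poisson intervals that cover counting error only. Levels of different genes are not compared with each other, since 3′ counts were not scaled by length.

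The 10 genes split by detection into 5 that were above 5 CPM in all 5 libraries (CDKN1C, NNAT, PEG10, SNRPN and KCNQ1OT1), DLK1, which was high in D0 and nearly gone in grafts, and 4 that were near 0 wherever they were listed (MEG3, IGF2, H19 and PEG3).

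**Figure D1:**
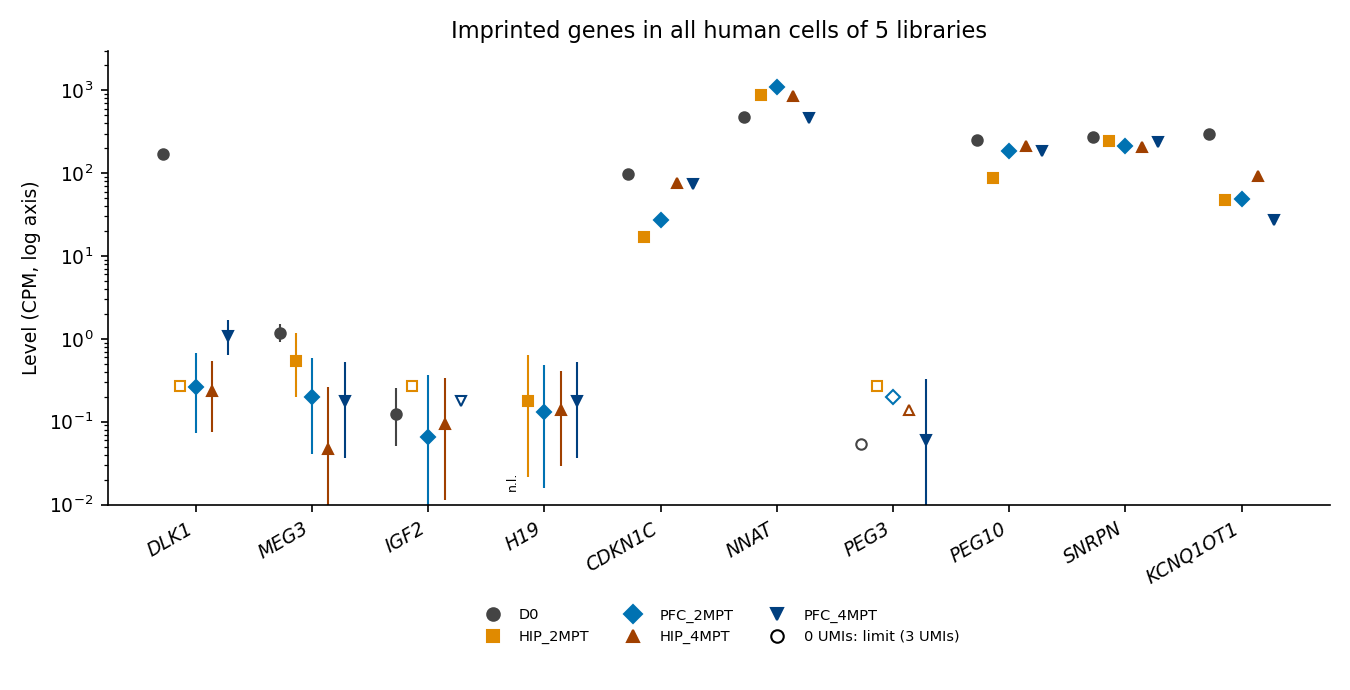
Levels of the 10 genes in all human cells, in CPM on a log axis, with one point for each of the 5 libraries and exact 95% Poisson intervals as lines. Open markers stand at the limit that 3 UMIs allow where a library had 0 UMIs, and n.l. marks H19, which was not listed for D0. DLK1 dropped from 168 CPM in D0 to at most 1.07 CPM in grafts, CDKN1C was low in both 2MPT libraries, and IGF2, H19 and PEG3 stayed near the detection limit.

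For 3 of the 10 genes the RefSeq table held the sequence before an annotated start (GRCh38.p14), and they are shown because they pair a gene that was read steadily in all libraries (SNRPN) with 2 that were barely read in any (MEG3 and H19). The windows are the 250 bases before the start, 5′ to 3′ on the strand of the gene, with CG dinucleotides, the sites at which imprints are methylated, in capitals. MEG3 is chr14:100825858-100826107 on the plus strand, H19 chr11:2001267-2001516 on the minus strand and SNRPN chr15:24954737-24954986 on the plus strand.
MEG3: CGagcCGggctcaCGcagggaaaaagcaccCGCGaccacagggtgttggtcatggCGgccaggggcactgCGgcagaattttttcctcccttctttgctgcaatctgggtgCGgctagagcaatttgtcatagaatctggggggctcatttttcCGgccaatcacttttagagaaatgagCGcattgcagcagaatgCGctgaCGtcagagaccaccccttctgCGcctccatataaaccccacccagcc
H19: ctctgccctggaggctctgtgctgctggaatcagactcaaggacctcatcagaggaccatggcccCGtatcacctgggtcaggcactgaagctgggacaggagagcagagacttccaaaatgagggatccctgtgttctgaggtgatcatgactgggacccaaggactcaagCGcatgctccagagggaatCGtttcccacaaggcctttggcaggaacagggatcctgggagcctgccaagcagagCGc
SNRPN: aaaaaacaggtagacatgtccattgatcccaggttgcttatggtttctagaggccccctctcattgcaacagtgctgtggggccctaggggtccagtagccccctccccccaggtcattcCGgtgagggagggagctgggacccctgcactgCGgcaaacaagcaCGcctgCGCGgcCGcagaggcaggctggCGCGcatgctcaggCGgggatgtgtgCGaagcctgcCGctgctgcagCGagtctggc
The MEG3 window held 13 CG dinucleotides at 56.4% GC, the SNRPN window 12 at 63.6% GC and the H19 window 4 at 58.0% GC, against a median of 11 over all 35116 windows of this length. The MEG3 window held TGACGTCA, the letters bound by CREB-type factors, which 1.65% of all windows held on either strand, and TATAAA, which 10.7% held. The letters GGGCGG, present in 42.6% of windows, were in none of the 3 printed windows, and neither H19 nor SNRPN held TGACGTCA or TATAAA. The table held 2 more windows for MEG3, with 11 and 13 CG dinucleotides and the same motifs, and 3 more for SNRPN, with 1, 6 and 6, of which the one at chr15:24856321-24856570 held GGGCGG. The first MEG3 window and the SNRPN window with the most CG dinucleotides are the ones printed.

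DLK1, which encodes a transmembrane and shed Notch-family ligand that maintains progenitors, was read in every class of D0 and was almost absent from grafts. The gene lies at chr14:100725705-100738224 on the plus strand (GRCh38). Its level was 168 CPM in D0 (165 to 172, 9411 UMIs), 0 of 11192237 UMIs in HIP_2MPT, 0.264 CPM in PFC_2MPT (4 UMIs), 0.233 CPM in HIP_4MPT (5 UMIs) and 1.07 CPM in PFC_4MPT (18 UMIs). D0 stood far above every graft. Among grafts the interval of PFC_4MPT (0.633 to 1.69) lay above those of HIP_2MPT and HIP_4MPT and overlapped that of PFC_2MPT (0.0720 to 0.677), and the other three overlapped one another. The D0 level was at least 628-fold higher than that of HIP_2MPT, taking the limit of 3 UMIs for that library, and 637-fold (249 to 2339), 723-fold (310 to 2226) and 158-fold (99.8 to 266) higher than those of PFC_2MPT, HIP_4MPT and PFC_4MPT.

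In D0 the DLK1 level was 684 CPM in choroid-plexus-like cells (4098 UMIs in 327 cells) and 6.42 times (6.17 to 6.69) that of all other D0 cells. The cluster of these cells was led by TTR, HTR2C, TRH, PCP4 and TRPM3 and the class is named for the epithelium that makes cerebrospinal fluid. The level was 156 CPM in radial-glia-like cells, 127 CPM in intermediate-progenitor-like, 94.6 CPM in Cajal-Retzius-like, 76.5 CPM in cycling, 64.7 CPM in glutamatergic-neuron-like, 42.4 CPM in inhibitory-neuron-like and 28.7 CPM in astrocyte-like cells. Choroid-plexus-like cells thus stood apart in this clustering, and one radial-glia-like cluster, led by FAM89A, MCM3, E2F1, PCLAF and MCM5, was next at 287 CPM. That cluster had 4 radial glia markers up, and its radial glia score (0.862) lay below its microglia score (0.917). Single cells reached 284 UMIs among radial-glia-like and 226 UMIs among choroid-plexus-like cells. Without choroid-plexus-like cells D0 still read 106 CPM. The boundary of this class moved with the clustering, from 327 D0 cells to 416 at resolution 1.6 and 595 without integration of the libraries. Levels in this class and without it, here and for the other genes, were not computed at those boundaries. The part of free RNA in the low levels of the other classes was not tested.

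The 27 DLK1 UMIs of all grafts were not spread evenly over classes. Inhibitory-neuron-like cells of 4MPT held 22 of them, 5 UMIs in 4 of 257 cells of HIP_4MPT (7.38 CPM) and 17 UMIs in 14 of 1100 cells of PFC_4MPT (8.29 CPM). The 11 inhibitory neuron markers summed to 10.1 and 27.4 CPM over all cells of the 2MPT libraries and to 204 and 703 CPM over those of HIP_4MPT and PFC_4MPT. At 2MPT such cells numbered 28 in HIP_2MPT and 21 in PFC_2MPT, and their 0 UMIs allow up to 96.2 and 60.6 CPM. A further 4 UMIs were in a single radial-glia-like cell of PFC_2MPT and 1 was in a cycling cell of PFC_4MPT. Glutamatergic-neuron-like, intermediate-progenitor-like and astrocyte-like cells of all 4 grafts had 0.

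IGF2, the fetal growth hormone that signals through the IGF1 receptor, was near 0 in all libraries. The gene is annotated at chr11:2129112-2158391 on the minus strand. It had 7 UMIs in D0 (0.125 CPM) and 3 in all grafts together, of which HIP_4MPT held 2, PFC_2MPT 1 and the other two libraries 0. The 7 UMIs of D0 were in 7 cells, 3 choroid-plexus-like and 4 radial-glia-like. At these depths 0 UMIs allow up to 0.268 CPM in HIP_2MPT and 0.178 CPM in PFC_4MPT, so no difference between libraries was detectable. A second IGF2 entry of the annotation held at most 1 UMI in any library.

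CDKN1C, a cyclin-dependent kinase inhibitor of the CIP/KIP family that holds cells out of the cycle, was high in D0, low at 2MPT and intermediate at 4MPT. It spans chr11:2883213-2885775 on the minus strand. Its level was 98.1 CPM in D0 (95.5 to 100.7, 5481 UMIs), 17.1 CPM in HIP_2MPT (191 UMIs), 27.5 CPM in PFC_2MPT (417 UMIs), 75.6 CPM in HIP_4MPT (1623 UMIs) and 73.0 CPM in PFC_4MPT (1231 UMIs). Both 2MPT libraries were below both 4MPT libraries, which overlapped each other within counting error. In sums over whole libraries, fewer cells of a type and less RNA per cell cannot be told apart.

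By class, CDKN1C in D0 was 366 CPM in choroid-plexus-like cells, 5.56 times (5.26 to 5.87) the level of other D0 cells, and 65.9 CPM in D0 without them. Among the other D0 cells it was 119 CPM in Cajal-Retzius-like, 111 CPM in intermediate-progenitor-like, 89.98 CPM in inhibitory-neuron-like and 70.7 CPM in glutamatergic-neuron-like cells. It was lower in the remaining D0 types, with 48.6 CPM in radial-glia-like, 35.7 CPM in cycling and 24.2 CPM in astrocyte-like cells. Neuronal and intermediate progenitor types thus all stood above radial glia, cycling and astrocyte types in D0.

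In grafts the CDKN1C level in glutamatergic-neuron-like cells was 18.7 CPM in HIP_2MPT, 41.1 CPM in PFC_2MPT, 47.2 CPM in HIP_4MPT and 58.4 CPM in PFC_4MPT. Astrocyte-like cells read 4.33, 2.77, 8.57 and 6.58 CPM in the same order, on 2 to 23 UMIs. Cycling cells read 13.7, 5.41, 10.998 and 22.8 CPM. These levels were all below those of the same class in D0.

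At 4MPT most or much of the CDKN1C came from one cluster without a name, cluster 6. It was led by AC007402.1, OLIG1, EGFR, KIRREL3 and AC002069.2, held 1730 cells, of which HIP_4MPT gave 950 and PFC_4MPT 655, with 45 and 78 cells from HIP_2MPT and PFC_2MPT and 2 cells from D0, and scored highest for the astrocyte list, 8 of whose markers were up, while its top 10 genes held 0 markers of that list and 2 of another. Its CDKN1C level was 290 CPM in HIP_4MPT (1000 UMIs) and 320 CPM in PFC_4MPT (558 UMIs), 8.40 times (7.59 to 9.30) and 7.19 times (6.42 to 8.06) the level of all other cells of these libraries. The cluster held 61.6% of the CDKN1C UMIs of HIP_4MPT and 45.3% of those of PFC_4MPT, against 16.0% and 10.3% of all UMIs. At 2MPT its few cells read 27.2 CPM (2 UMIs) and 17.9 CPM (4 UMIs). The 10 oligodendrocyte lineage markers summed in this cluster to 436, 1041, 2366 and 1608 CPM in HIP_2MPT, PFC_2MPT, HIP_4MPT and PFC_4MPT, of which OLIG1 made 272, 906, 1987 and 1263 CPM, while SOX10 was 0, 0, 0.290 and 2.29 CPM. Oligodendrocyte-lineage-like cells, present at 4MPT, read 220 CPM in HIP_4MPT (56 UMIs) and 81.4 CPM in PFC_4MPT (24 UMIs).

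**Figure D2:**
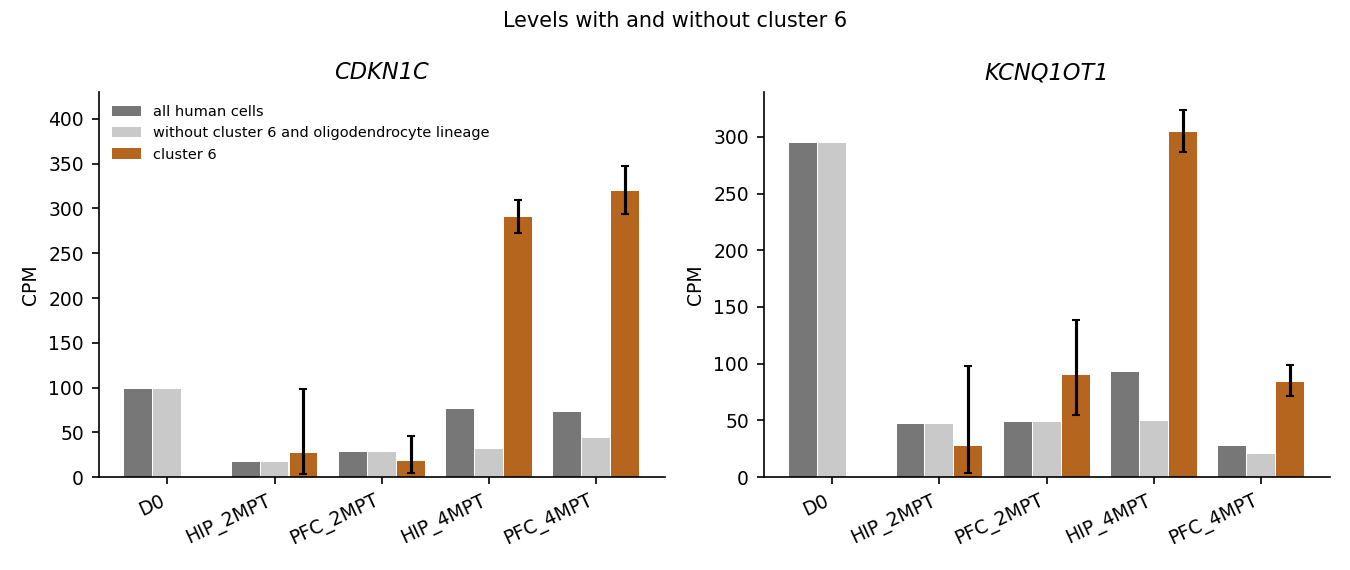
Levels of CDKN1C on the left and KCNQ1OT1 on the right in CPM by library, over all human cells (dark bars), without cluster 6 and oligodendrocyte-lineage-like cells (light bars) and in cluster 6 alone (brown bars, with 95% counting intervals). CDKN1C dropped from 75.6 to 31.9 CPM in HIP_4MPT and from 73.0 to 43.8 CPM in PFC_4MPT, while D0 and the 2MPT libraries hardly moved.

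Without cluster 6 and oligodendrocyte-lineage-like cells, CDKN1C was 98.1 CPM in D0, 16.9 CPM in HIP_2MPT, 27.7 CPM in PFC_2MPT, 31.9 CPM in HIP_4MPT and 43.8 CPM in PFC_4MPT. The order of the libraries by stage held, with a smaller step from 2MPT to 4MPT.

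KCNQ1OT1, a long non-coding RNA read from the paternal copy that keeps CDKN1C and its neighbours silent in cis, was high in D0 and low in grafts. It is annotated at chr11:2597308-2700003 on the minus strand inside KCNQ1, which lies on the other strand and had 9 to 20 UMIs per library. Its level was 295 CPM in D0 (290 to 299), 47.2 CPM in HIP_2MPT (43.2 to 51.4), 49.0 CPM in PFC_2MPT (45.6 to 52.7), 92.6 CPM in HIP_4MPT (88.6 to 96.8) and 27.3 CPM in PFC_4MPT (24.8 to 29.9). The 2MPT libraries overlapped, and the 4MPT libraries lay on either side of them.

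The classes in which KCNQ1OT1 was high were those in which CDKN1C was high. In D0 it was 671 CPM in choroid-plexus-like cells, 2.69 times (2.59 to 2.79) the level of the other cells, 498 CPM in inhibitory-neuron-like, 467 CPM in Cajal-Retzius-like, 325 CPM in intermediate-progenitor-like and 291 CPM in glutamatergic-neuron-like cells, against 132 to 157 CPM in radial-glia-like, cycling and astrocyte-like cells. In cluster 6 it was 304 CPM in HIP_4MPT and 84.3 CPM in PFC_4MPT, 5.83 times (5.34 to 6.38) and 4.07 times (3.32 to 4.97) the level of other cells. The cluster held 52.7% and 32.0% of the KCNQ1OT1 UMIs of these libraries, and without it and the oligodendrocyte lineage the levels were 49.7 and 20.03 CPM. Over 36 combinations of library and cell type, the 2 genes had a Pearson r of 0.78 on the log2(CPM + 1) scale, given as a description because these units share libraries and depth.

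The balance of the pair differed between libraries. KCNQ1OT1 UMIs per CDKN1C UMI over all cells were 3.01 for D0, 2.76 and 1.78 for HIP_2MPT and PFC_2MPT, and 1.22 and 0.374 for HIP_4MPT and PFC_4MPT. The order was the same within glutamatergic-neuron-like cells, at 4.11, 3.099, 1.67, 1.58 and 0.484, and cluster 6 read 1.05 in HIP_4MPT and 0.263 in PFC_4MPT. Intermediate-progenitor-like cells did not keep this order, at 2.92, 1.48, 2.68, 1.82 and 0.433, with HIP_2MPT below PFC_2MPT and HIP_4MPT. Their graft values rest on 23 to 34 CDKN1C UMIs per library. The ratio compares 1 pair of genes across libraries and says nothing of their molar amounts.

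MEG3, a maternally expressed long non-coding RNA of the same imprinted cluster as DLK1, was near 0. The files list it at 1.18 CPM in D0 (0.913 to 1.502, 66 UMIs), 0.536 CPM in HIP_2MPT (6 UMIs), 0.198 CPM in PFC_2MPT (3 UMIs), 0.0466 CPM in HIP_4MPT (1 UMI) and 0.178 CPM in PFC_4MPT (3 UMIs). It spans chr14:100779410-100861031 on the plus strand, and its promoter window is printed above. D0 was 2.20 times (0.960 to 6.22) HIP_2MPT, an interval that includes no difference, and 5.96 times (1.95 to 29.6), 25.3 times (4.39 to 1016) and 6.64 times (2.17 to 33.0) PFC_2MPT, HIP_4MPT and PFC_4MPT. The 66 UMIs of D0 lay in 7 of the 8 classes present, 24 of them in radial-glia-like, 12 in choroid-plexus-like and 11 in cycling cells, with at most 4 in any cell. Neuron-like cells of all 4 grafts held 11 MEG3 UMIs.

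H19, the maternally expressed long non-coding RNA that shares its control region with IGF2, had 2 UMIs in each 2MPT library and 3 in each 4MPT library, and it was not listed for D0. It lies at chr11:1995166-2004552 on the minus strand. Of the 10 UMIs, 4 were in astrocyte-like cells, 2 in oligodendrocyte-lineage-like cells, 2 in glutamatergic-neuron-like cells and 2 in 1 choroid-plexus-like cell. PEG3, a zinc finger gene of the paternal copy at chr19:56810077-56840728, had 1 UMI in all 5 libraries together, in a cycling cell of PFC_4MPT, and 0 of 55892222 UMIs in D0, which allows up to 0.0537 CPM. ZIM2, which overlaps PEG3 on the same strand, had 0 to 3 UMIs per library.

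NNAT, the small membrane protein neuronatin of the endoplasmic reticulum, was read in all classes and was lowest in D0 and PFC_4MPT. It spans chr20:37521206-37523690 on the plus strand, inside BLCAP, which lies on the other strand and had 1218 to 5418 UMIs per library. Its level was 475 CPM in D0 (469 to 481), 876 CPM in HIP_2MPT (859 to 894), 1091 CPM in PFC_2MPT (1074 to 1107), 847 CPM in HIP_4MPT (835 to 859) and 459 CPM in PFC_4MPT (449 to 469). HIP_2MPT and HIP_4MPT overlapped within counting error, and all other neighbours in this order did not.

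The NNAT level of D0 differed widely by class. It was 1488 CPM in inhibitory-neuron-like, 1098 CPM in intermediate-progenitor-like, 703 CPM in glutamatergic-neuron-like and 642 CPM in Cajal-Retzius-like cells, against 240 CPM in radial-glia-like and 97.3 CPM in choroid-plexus-like cells, the latter 0.187 times (0.172 to 0.203) the other cells. In grafts radial-glia-like cells read 1000 CPM in HIP_2MPT, 1524 CPM in PFC_2MPT, 1419 CPM in HIP_4MPT and 711 CPM in PFC_4MPT, all above D0. The class pooled clusters that D0 and grafts filled unlike. The one that scored second for intermediate progenitors held 463 D0 cells, beside clusters of 744 and 757. In these grafts it held 109, 284, 120 and 127 cells, beside 108 and 80, 107 and 50, 47 and 68, and 72 and 37. The part of this mixture in the NNAT levels was not tested. Astrocyte-like cells read 566, 702, 300 and 206 CPM in the same order, so that both 2MPT libraries were above both 4MPT libraries. Oligodendrocyte-lineage-like cells were the lowest of the grafts, at 86.5 CPM in HIP_4MPT and 74.6 CPM in PFC_4MPT.

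**Figure D3:**
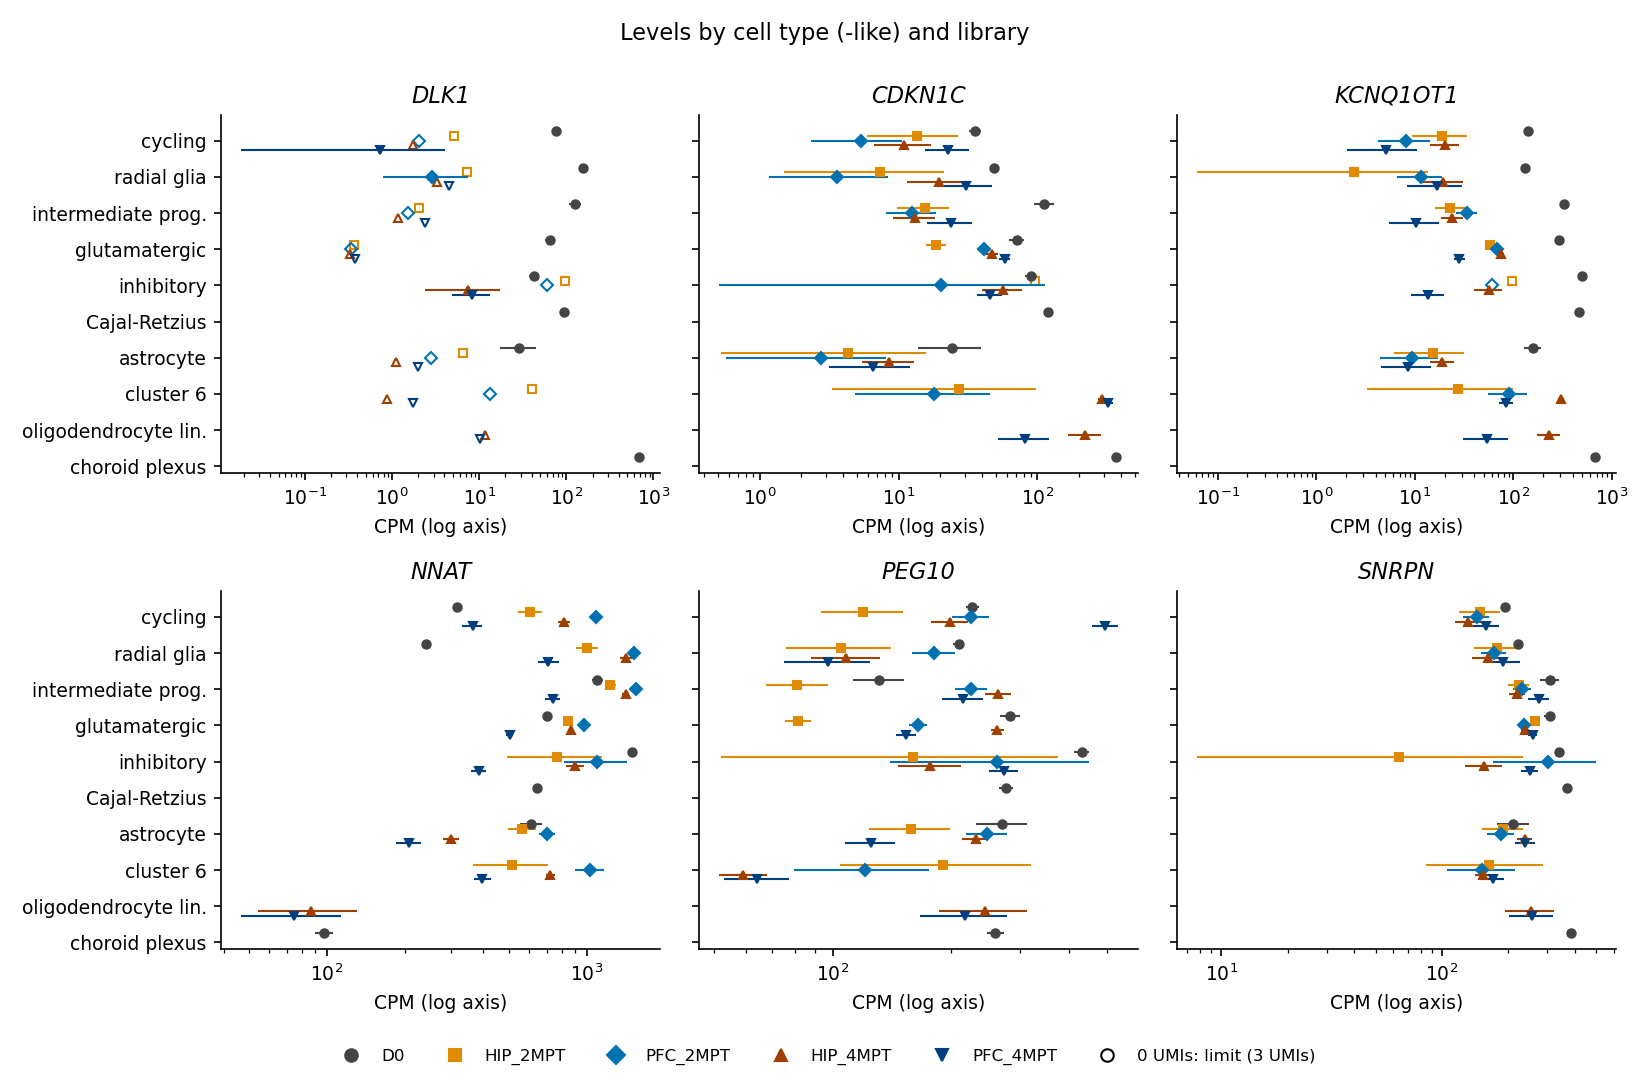
Levels of 6 of the genes in CPM on log axes by cell type, named from marker genes, with one coloured point per library and 95% counting intervals as lines. Open markers stand at the limit of 3 UMIs where there were 0. Choroid-plexus-like cells of D0 were high in DLK1 (684 CPM), CDKN1C (366 CPM) and KCNQ1OT1 (671 CPM) and low in NNAT (97.3 CPM), and cluster 6 was high in CDKN1C and KCNQ1OT1 at 4MPT.

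PEG10, a gene derived from a retrotransposon whose protein keeps a capsid-like fold, was read in all libraries and was lowest in HIP_2MPT. It lies at chr7:94656325-94669695 on the plus strand. Its level was 253 CPM in D0 (249 to 257), 88.5 CPM in HIP_2MPT (83.0 to 94.1), 186 CPM in PFC_2MPT (179 to 193), 211 CPM in HIP_4MPT (205 to 217) and 187 CPM in PFC_4MPT (181 to 194). PFC_2MPT and PFC_4MPT overlapped within counting error.

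In cycling cells PEG10 stood apart in one library. These cells read 227 CPM in D0, 120 CPM in HIP_2MPT, 224 CPM in PFC_2MPT, 199 CPM in HIP_4MPT and 495 CPM in PFC_4MPT, where the level was 4.14 times (3.23 to 5.37), 2.20 times (1.93 to 2.52) and 2.49 times (2.19 to 2.85) that of cycling cells in HIP_2MPT, PFC_2MPT and HIP_4MPT. The 11 inhibitory neuron markers summed in cycling cells to 76.5, 25.6, 98.7, 782 and 1820 CPM in D0, HIP_2MPT, PFC_2MPT, HIP_4MPT and PFC_4MPT, with 0, 5, 2, 1 and 0 markers at 0 UMIs, and GAD2, a GABA-synthesising enzyme, was the highest of them in each graft, at 686 CPM in PFC_4MPT. Cycling cells of PFC_4MPT with at least 2 UMIs of these markers read 695 CPM of PEG10 (641 to 753, 231 cells), and those with 0 or 1 read 153 CPM (121 to 191, 140 cells). In HIP_4MPT the same division gave 282 CPM (238 to 333, 104 cells) and 164 CPM (143 to 189, 203 cells), and in D0 243 CPM and 220 CPM. Both groups of PFC_4MPT had similar median depth, at 3472 and 3612 UMIs per cell. The groups of the other libraries did not, with 4489 and 5865 UMIs in HIP_4MPT and 25320 and 14992 UMIs in D0, those with the markers first. The same cut in marker UMIs is thus not alike across libraries, and the part of depth was not tested. The division of cells was chosen after their values were seen and carries no test. The boundary of the cycling class in PFC_4MPT moved with the clustering, from 371 cells to clusters of 104 and 122 cells at resolution 1.6. There, an inhibitory-neuron-like cluster that scored second for the cycling list held 229 cells of PFC_4MPT and 105 of HIP_4MPT. PEG10 levels in cycling cells were not computed at that boundary.

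**Figure D4:**
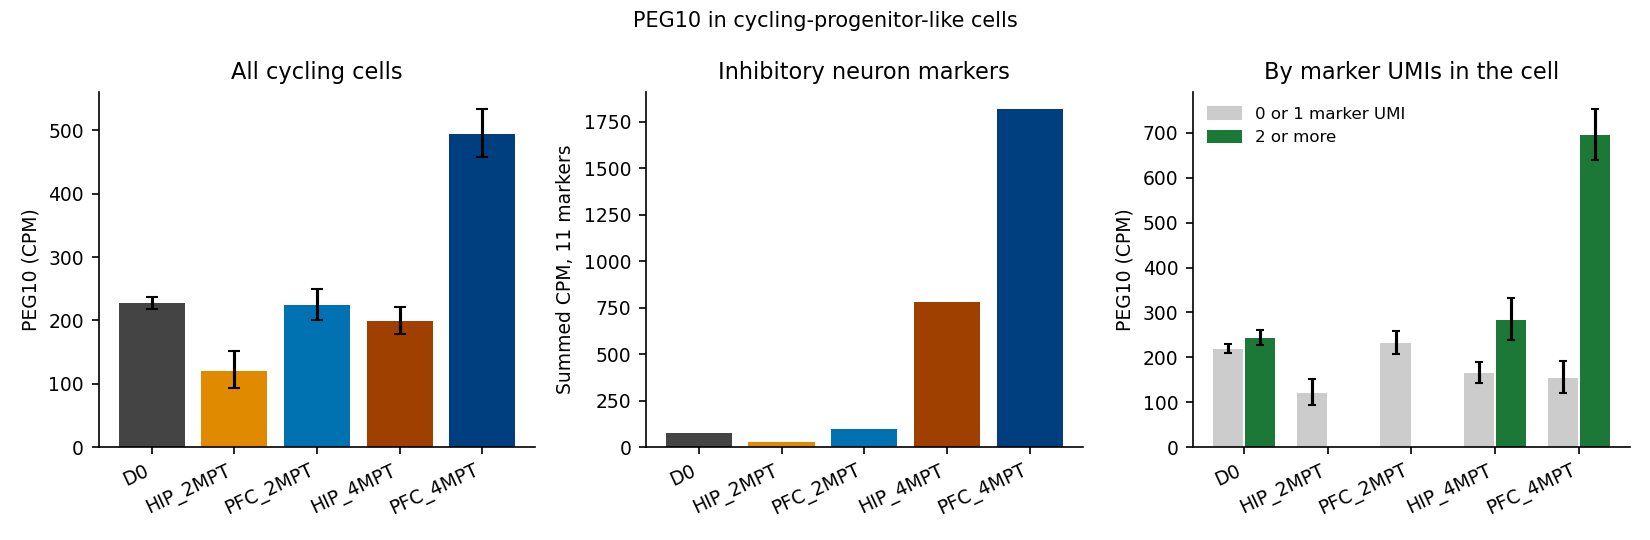
PEG10 in cycling-progenitor-like cells in CPM by library on the left, the summed CPM of 11 inhibitory neuron markers in these cells in the middle, and on the right PEG10 in cells with at least 2 UMIs or with 0 or 1 UMI of those markers, with 95% counting intervals as error bars. Library groups under 20 cells are left out of the right panel. PFC_4MPT stood at 495 CPM, and its cells with the markers stood at 695 CPM against 153 CPM for those without.

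Elsewhere PEG10 was 430 CPM in inhibitory-neuron-like cells of D0 and 160 to 273 CPM in those of grafts. In radial-glia-like cells it was 210 CPM in D0 and 97.4 to 181 CPM in grafts. Cluster 6 was low, at 59.2 CPM in HIP_4MPT and 64.2 CPM in PFC_4MPT, 0.247 times (0.213 to 0.284) and 0.319 times (0.262 to 0.385) the other cells.

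SNRPN, which encodes an Sm protein of the spliceosome and lies in the Prader-Willi region, varied least in range among the 5 genes read in every library. Its level was 276 CPM in D0 (272 to 281), 246 CPM in HIP_2MPT (237 to 255), 215 CPM in PFC_2MPT (207 to 222), 208 CPM in HIP_4MPT (202 to 214) and 236 CPM in PFC_4MPT (229 to 243). HIP_2MPT overlapped PFC_4MPT, and PFC_2MPT overlapped HIP_4MPT. In D0 it ranged from 194 CPM in cycling cells to 385 CPM in choroid-plexus-like cells, and in grafts cycling cells read 131 to 158 CPM and glutamatergic-neuron-like cells 235 to 265 CPM. The gene is annotated at chr15:24823637-24978723 on the plus strand and overlaps genes on that strand that were listed differently, ENSG00000214265 only for D0 (828 UMIs) and SNHG14 only for grafts (3381 to 5165 UMIs). Values of SNRPN in D0 against grafts are therefore uncertain.

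Differences between stages were tested with edgeR on UMI sums per library, with HIP and PFC as the 2 libraries of a stage and D0, a single library, assumed to vary like the others. The fits used TMM, which rescales the library totals, while CPM uses the totals themselves. Fitted differences, here and for the gene lists below, are therefore not log2 ratios of the CPM printed beside them. Nothing in the labels says that the libraries of a stage came from separate batches of culture, so p-values measure the spread between these libraries. Of the 10 genes, 7 passed the filter on low counts in comparisons with D0 and 5 in comparisons among grafts, and IGF2, H19 and PEG3 passed in neither. DLK1 and MEG3 passed only through their D0 counts, so a difference was built into their selection, and their fitted values are given without a test and left out of the counts.

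At 2MPT, 3 of the 5 genes that were also tested among grafts were lower than in D0 and none was higher, when 48.8% of all 19074 genes tested passed an adjusted p of 0.05. That share, like the others against D0, also counts genes that passed the filter only through D0, as DLK1 and MEG3 did. CDKN1C fell by 2.48 on the log2 scale (SE 0.30, adjusted p = 3.50e-05), KCNQ1OT1 fell by 2.97 (SE 0.67, adjusted p = 0.0214) and PEG10 fell by 1.23 (SE 0.39, adjusted p = 0.0280). SNRPN (-0.62, adjusted p = 0.0737) and NNAT (0.70, adjusted p = 0.122) did not pass. Both fitted values lay below what the CPM alone would give. SNRPN went from 276 CPM before grafting to 246 (HIP) and 215 (PFC) at this stage, a smaller fall than fitted. NNAT went from 475 CPM to 876 (HIP) and 1091 (PFC), a larger rise than fitted. The part of the scaling in the fitted falls was not tested. CDKN1C and KCNQ1OT1 passed in all 13 alternatives. PEG10 did not pass without HIP_2MPT (adjusted p = 0.0856), without HIP_4MPT (0.0855) or without PFC_4MPT (0.0839), with a range of 9.76e-06 to 0.0856 over 13 alternatives. The fitted values of DLK1 (-10.43) and MEG3 (-2.09) rest on 4 and 9 graft UMIs and are no bounds.

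At 4MPT, 1 of these 5 genes was lower than in D0 and none was higher, with 50.2% of all genes passing. KCNQ1OT1 fell by 2.62 (SE 0.67, adjusted p = 0.0297) and passed in all 13 alternatives. CDKN1C (-0.70, adjusted p = 0.0721), PEG10 (-0.64, adjusted p = 0.205), SNRPN (-0.61, adjusted p = 0.0756) and NNAT (0.15, adjusted p = 0.743) did not pass. Both comparisons share the D0 library. Without cluster 6 and oligodendrocyte-lineage-like cells CDKN1C fell by 1.68 from D0 to 4MPT (adjusted p = 0.00175), and it passed in 4 of 13 alternatives (0.00175 to 0.713). The fitted values of DLK1 and MEG3 were -8.38 and -3.71.

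From 2MPT to 4MPT, CDKN1C rose by 1.79 on the log2 scale (SE 0.26, adjusted p = 0.00596), 1 of the 5 genes tested, when 2.27% of 18127 genes passed. Both 4MPT libraries were above both 2MPT libraries. NNAT (-0.55, adjusted p = 0.440), PEG10 (0.59, adjusted p = 0.476), KCNQ1OT1 (0.35, adjusted p = 0.857) and SNRPN (0.01, adjusted p = 0.992) did not pass. Leaving out cluster 6 and oligodendrocyte-lineage-like cells brought the CDKN1C difference to 0.80 (adjusted p = 0.286), and leaving out HIP_4MPT or PFC_4MPT gave adjusted p values of 0.0850 and 0.0719. It passed in the other 10 of 13 alternatives, the lowest adjusted p being 4.58e-10.

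**Figure D5:**
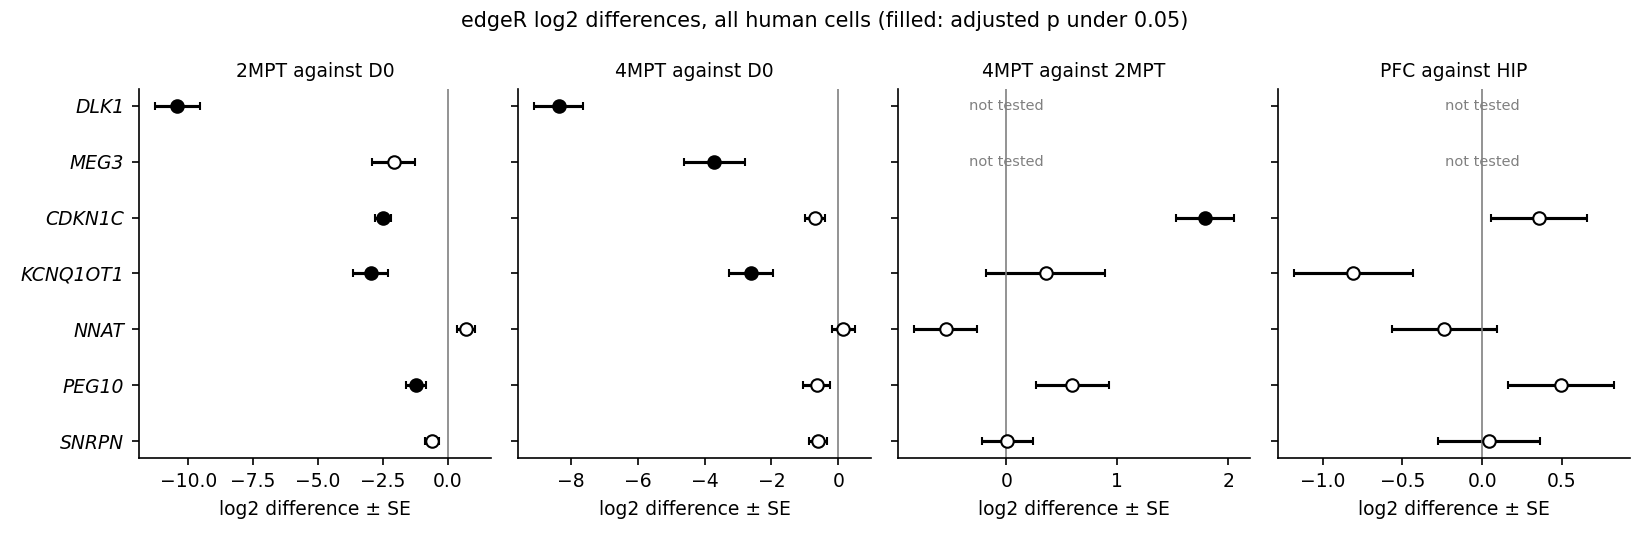
Differences fitted by edgeR over all human cells, in log2 units with standard errors as bars, for the genes tested in each of 4 comparisons, with filled markers for adjusted p under 0.05. The scale of the x axis differs between panels. DLK1 and MEG3 entered only through their D0 counts, so their markers are a description. CDKN1C fell by 2.48 at 2MPT against D0 and rose by 1.79 from 2MPT to 4MPT, and PFC against HIP has no filled marker.

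Between the sites, none of the 5 genes passed with edgeR, where 0.0496% of all genes, 9 in number, did, nor with DESeq2. KCNQ1OT1 alone had an unadjusted edgeR p under 0.05 (0.0449), with PFC lower by a log2 difference of -0.81 (SE 0.37, adjusted p = 1.00). PEG10 was 0.49 (SE 0.33) and CDKN1C 0.36 (SE 0.30), both with adjusted p = 1.00. This model had stage as a covariate and 1 residual degree of freedom. KCNQ1OT1 was 47.2 CPM in HIP_2MPT and 49.0 CPM in PFC_2MPT, with overlapping intervals. At 4MPT it was 92.6 CPM in HIP and 27.3 CPM in PFC, so its sites lay apart at that stage only.

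Within the classes tested, the call of CDKN1C between graft stages was not repeated. Cluster 6, which held 61.6% and 45.3% of the CDKN1C UMIs of HIP_4MPT and PFC_4MPT, was in none of these classes. Its levels by stage are therefore described above without a test. In neuron-like cells, which pool the neuronal and intermediate progenitor types, none of 5 genes passed with edgeR or DESeq2 when 1.1% of 16600 genes did, with CDKN1C at 0.82 (SE 0.33, adjusted p = 0.328) the only one with an unadjusted p under 0.05. The stages differed in mixture, as a GAD2-led inhibitory-neuron-like cluster held 249 and 1095 cells of HIP_4MPT and PFC_4MPT. It held 20 and 19 cells of HIP_2MPT and PFC_2MPT. None of the genes passed in glutamatergic-neuron-like cells alone either. In progenitor-like cells, which pool the radial glia and cycling types, none passed with either tool when 0.904% of 12384 genes did, with CDKN1C at 1.65 (SE 0.50, adjusted p = 0.262), again the only one under 0.05 unadjusted, on 112 UMIs. In astrocyte-like cells, where CDKN1C had 38 UMIs and was not tested, NNAT fell by 1.27 (SE 0.25, adjusted p = 0.00617), 1 of 4 genes tested, when 3.39% of 11680 genes passed. It did not pass without PFC_4MPT (adjusted p = 0.0949), and passed in the other 13 of 14 alternatives (lowest 1.27e-05). A cluster led by SPARCL1 held 213 of 625 and 178 of 509 of these cells at 4MPT and 8 of 344 and 3 of 377 at 2MPT, and NNAT there was 142 and 157 CPM. In the other astrocyte-like cluster, led by TNC, NNAT was 576, 698, 365 and 234 CPM in HIP_2MPT, PFC_2MPT, HIP_4MPT and PFC_4MPT, so that the stages did not overlap there either.

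Between D0 and 2MPT the within-class tests gave 3 of the same 5 genes lower in each of 2 classes. Among the 3 in progenitor-like cells was SNRPN, whose values in D0 against grafts are uncertain because of the overlapping genes named above. Its level in these cells went from 211 CPM in D0 to 161 (HIP_2MPT) and 157 CPM (PFC_2MPT), a smaller fall than fitted. In neuron-like cells, with 44.1% of 17675 genes passing and a median shift of all genes of 0.16 on the log2 scale, CDKN1C fell by 2.03 (adjusted p = 0.00159), KCNQ1OT1 fell by 3.04 (adjusted p = 0.00268) and PEG10 fell by 1.37 (adjusted p = 0.0346). PEG10 did not pass without HIP_2MPT (adjusted p = 0.0766), without HIP_4MPT (0.0621), without PFC_4MPT (0.0664) or with clustering that did not integrate the libraries (0.0725), and passed in the other 10 of 14 alternatives (lowest 8.67e-06). Of the D0 neuron-like cells, 691 were in the Cajal-Retzius-like and 520 in one SST-led inhibitory-neuron-like cluster, which held at most 8 cells of any graft. In progenitor-like cells, with 37.5% of 13800 genes passing, CDKN1C fell by 3.08 (adjusted p = 9.30e-05), KCNQ1OT1 fell by 4.04 (adjusted p = 4.79e-07) and SNRPN fell by 0.79 (adjusted p = 0.0336), while NNAT was 1.59 higher without passing (SE 0.53, adjusted p = 0.0530). Of progenitor-like cells, 601 of 2565 were cycling in D0, against 298 of 595 in HIP_2MPT and 330 of 771 in PFC_2MPT. Clusters led by PRKCB and FAM89A gave 744 and 757 of them in D0, 108 and 80 in HIP_2MPT, 107 and 50 in PFC_2MPT. The part of this mixture in the differences was not tested. NNAT passed in 8 of 13 alternatives, among them DESeq2 and each fit with 1 graft library left out (3.66e-05 to 0.0751 over all 13). SNRPN did not pass with DESeq2 (adjusted p = 0.0622), without HIP_2MPT (0.0966) or without PFC_2MPT (0.0919), and passed in the other 10 of 13 alternatives (lowest 0.0124).

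Other genes of imprinted domains moved in both directions, in shares near or above those of all genes (48.8% at 2MPT and 50.2% at 4MPT). Of 36 listed, 26 were tested against D0. At 2MPT 6 rose and 10 fell (median log2 difference -0.34, against 0.07 for all genes). At 4MPT 3 rose and 10 fell (median -0.72, against 0.08). Some of the 26, such as NAP1L5 (17.2 CPM in D0 and 0 to 0.474 CPM in grafts), passed the filter only through D0. Such genes, with a fall built into their selection, are in these counts and medians. None of 24 tested passed from 2MPT to 4MPT, when 2.27% of all genes tested did. The 4 with the highest mean level were GNAS, SNHG14, PPP1R9A and NDN. GNAS, the stimulatory G protein alpha subunit, was 1388 CPM before grafting and fell to 572 CPM (HIP_2MPT) and 1140 CPM (PFC_2MPT) (log2 difference -1.05, adjusted p = 0.0496). NDN, a neighbour of SNRPN that restrains the cell cycle in neurons, was 215 CPM in D0 and 73.7 to 84.9 CPM in grafts, and it fell by 1.88 at 2MPT (SE 0.26, adjusted p = 7.4e-05). PPP1R9A, an actin-binding neuronal protein, rose from 26.4 CPM to 110 to 190 CPM (1.92 at 2MPT, SE 0.36, adjusted p = 0.000952). SNHG14, the host transcript next to SNRPN, was 219 to 302 CPM in grafts.

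The axis through which IGF2 acts was read although the ligand was not. Of 27 genes listed, 25 were tested against D0. At 2MPT 6 rose and 11 fell (median -0.46, against 0.07 for all genes, 48.8% of which passed). At 4MPT 5 rose and 9 fell (median -0.06, against 0.08, with 50.2% passing). Some of the 25, such as STC2 (28.9 CPM in D0 and 0 to 0.237 CPM in grafts), passed the filter only through D0. A fall was thus built into the selection of such genes, which are in these counts and medians. IGFBP2, a binding protein that holds IGFs outside the cell, was 2164 CPM in D0 and 51.6 to 196 CPM in grafts, and it fell by 4.47 at 2MPT (SE 0.94, adjusted p = 0.0305). The receptors IGF1R and INSR rose, IGF1R from 41.8 CPM to 113 to 135 CPM (1.08 at 2MPT, adjusted p = 0.00687) and INSR from 38.0 CPM to 80.1 to 118 CPM (0.88, adjusted p = 0.0278). From 2MPT to 4MPT 1 of 20 tested passed over all cells, when 2.27% of all genes tested did. That gene, IGFBP5, was picked out after its values were seen and rose by 3.16 (adjusted p = 0.0127). In astrocyte-like cells 5 of 19 rose between these stages, IGFBP2, IGFBP5, IGFBP7, HTRA1 and FOXO1, when 3.39% of all genes tested there passed. These 5 were named after their values were seen. The SPARCL1-led cluster made up more of the astrocyte-like cells at 4MPT than at 2MPT, as given above, and its part in these rises was not tested.

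Of 14 genes of the CIP/KIP and INK4 group and their cyclin partners, the setting in which CDKN1C acts, 13 were tested against D0, and 1 rose and 5 fell at 2MPT (median -0.44) and 2 rose and 5 fell at 4MPT (median -0.44), shares near the 48.8% and 50.2% of all genes. CDKN1B, the family member nearest to CDKN1C in role, was 99.2 CPM in D0 and 56.6 to 82.7 CPM in grafts, and it fell by 0.86 at 2MPT (SE 0.29, adjusted p = 0.0264). CDKN2D was 122 CPM in D0 and 59.9 to 119 CPM in grafts (-0.58 at 2MPT, adjusted p = 0.111, and -1.14 at 4MPT, adjusted p = 0.00496). CCND2 (295 CPM in D0 and 341 to 415 CPM in grafts) and CDK4 (112 and 95.8 to 108 CPM) did not pass in either comparison. From 2MPT to 4MPT 1 of 13 passed, CCND1, when 2.27% of all genes tested did. It was picked out after its values were seen. Its levels were 0.357 and 0.727 CPM in HIP_2MPT and PFC_2MPT, near the detection limit, and 11.6 and 6.76 CPM in HIP_4MPT and PFC_4MPT. It passed the filter on low counts through its 4MPT levels, so its rise of 4.06 is a fitted value given without a test.

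The genes most like each member in level were found by Pearson r of log2(CPM + 1) over the 36 combinations of library and cell type, among 10131 genes and leaving the 10 members out, as a description. For DLK1 they were PTP4A1 (r = 0.94), CDKN1A (0.93) and TCEAL2 (0.92). For CDKN1C they were SLIT1, IGSF21 and TSC22D3 (0.70 each) and for KCNQ1OT1 TSC22D3 (0.79), ARMCX3 (0.79) and GOLGA4 (0.77), so that TSC22D3 stood on both lists, while the r of 0.78 between CDKN1C and KCNQ1OT1 was above all 3 named for CDKN1C. For NNAT they were PRAG1 (0.80) and SLC4A7 (0.71), for PEG10 DCK (0.69), MORF4L1 (0.66) and CMAS (0.66), and for SNRPN PLD3 (0.86), ARMCX1 (0.86) and BEX2 (0.85). The units share libraries, depth and annotation, and D0 units lie apart from graft units for many genes.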

How the data were processed

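Human brain organoids and their grafts in mice were profiled by 10x 3′ single-cell RNA-seq, with 1 library in each of 5 groups. The authors aligned the reads with Cell Ranger (3.1 per the labels) to a human reference of build GRCh38 and deposited matrices of UMI counts per gene and cell. Per the file headers D0 was made with another Cell Ranger release and annotation than the grafts, so 32732 genes were shared by identifier. Whether intronic reads or strand entered the counts is not given in the sources used here.

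From the deposited counts, cells with over 500 UMIs, over 500 genes, log10 genes divided by log10 UMIs over 0.8, a mitochondrial share under 0.15 and, in grafts, a human share over 0.8 were kept. No doublet caller was run, and mixed-species barcodes fell to the human share. Cells were clustered (R 4.3.3, sctransform 0.4.2, Seurat 5.3.0, 21 clusters) and named from fixed markers, and a cluster whose top genes went against its name stayed unnamed. UMIs were summed per library and class (at least 20 cells) and tested with edgeR 4.0.16 (TMM, filterByExpr, quasi-likelihood, Benjamini-Hochberg over all genes tested, threshold 0.05). The fits against D0 pooled all 5 libraries, D0 having no replicate. Models of some comparisons were run on counts simulated with the same spread for every gene. This checked the code and says nothing of the spread of these libraries. DESeq2 1.42.0, other filters, clusterings and left-out libraries were alternatives. Fold ranges are exact 95% intervals of counting error, and the limit of a count of 0 is 3 UMIs. Positions are from GENCODE 44, promoter windows from RefSeq.

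The 10 genes were given, and the genes of each list with the highest mean level and the 3 most alike were named by rule, except 2 that are not reported here. The members and lists were chosen with earlier results of these data known.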

Additional observations from a re-analysis of the deposited data

Results flagged for a closer look

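In 7 cases the change of a gene from 2MPT to 4MPT ran in opposite directions in the grafts of the 2 sites, with counting intervals apart in both. Other cases ran the same way at both sites, such as CDKN1C over all cells, with 2.15 in HIP and 1.41 in PFC. The share of all genes with such opposite changes was not computed, so the 7 cases cannot be read as a trait of these genes. These differences were not tested, since each site and stage was 1 library. All values are log2 ratios of CPM.

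KCNQ1OT1 over all cells rose by 0.97 in HIP and dropped by 0.85 in PFC, a difference of -1.82 for PFC against HIP. Cluster 6, with 45 cells in HIP_2MPT and 950 in HIP_4MPT, held 52.7% of the KCNQ1OT1 UMIs of HIP_4MPT. Without it and oligodendrocyte-lineage-like cells, KCNQ1OT1 read 47.2 CPM in HIP_2MPT and 49.7 CPM in HIP_4MPT. In PFC_2MPT and PFC_4MPT it then read 48.4 and 20.03 CPM. In neuron-like cells its values were 0.27 in HIP and -1.40 in PFC, a difference of -1.66. NNAT in neuron-like cells was 0.12 in HIP and -1.08 in PFC, a difference of -1.19, and in progenitor-like cells 0.42 and -1.44, a difference of -1.87. PEG10 in astrocyte-like cells was 0.55 in HIP and -0.98 in PFC, a difference of -1.53, on levels of 158, 247, 232 and 125 CPM in HIP_2MPT, PFC_2MPT, HIP_4MPT and PFC_4MPT. SNRPN ran the other way, with -0.24 in HIP and 0.14 in PFC over all cells, a difference of 0.38, and -0.17 and 0.14 in neuron-like cells, a difference of 0.31. PFC_4MPT, which enters every one of these values, had the highest median mitochondrial share (7.31%, against 2.35% to 3.77% in the other libraries). A human share over 0.9 kept 6496 of its 8363 cells, against 8065 of 8277, 5922 of 5952 and 6730 of 6913 in HIP_2MPT, PFC_2MPT and HIP_4MPT. It also gave 741 of the 821 cells of a neuron-like cluster led by MTRNR2L10, whose depth was 0.475 times the library median. An inhibitory-neuron-like cluster led by GAD2 held 1095 of the 6476 neuron-like cells of PFC_4MPT and 249 of 4713 of HIP_4MPT. It held 20 of 7289 in HIP_2MPT and 19 of 4724 in PFC_2MPT. The part of these traits in the values above was not tested.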

How the results depend on the processing

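Of the counts of called genes and of genes present under the alternatives, 116 stayed within 1.5 times their value and 8 did not. Unlike the counts given in earlier paragraphs, those against D0 here include DLK1 and MEG3. With these genes left out, the count for 4MPT against D0 would not have stayed within 1.5 times in the alternatives where CDKN1C passed. The count from 2MPT to 4MPT over all cells was 1 and ranged from 0 to 2 with 1 library left out (2 without PFC_2MPT, 0 without HIP_4MPT and 0 without PFC_4MPT), and it was 0 without cluster 6 and the oligodendrocyte lineage. In neuron-like cells the count also moved without PFC_2MPT, with fitted differences of 1.43 for CDKN1C and 1.49 for PEG10. The count of 0 there became 1 with no filter on low counts, through a gene that had not passed that filter in the main fit. In progenitor-like cells it became 1 with no filter, and in astrocyte-like cells the count of 1 became 0 without PFC_4MPT (range 0 to 1). Among differences of single genes, 609 kept direction and call, 21 gained and 16 lost the call, and 22 changed sign, all in genes that did not pass in the main fit. NNAT became -0.00467 for 4MPT against D0 without choroid-plexus-like cells. NNAT for 2MPT against D0 in neuron-like cells became -0.0714 with DESeq2 size factors, -0.0714 with DESeq2, -0.00577 with no filter and -0.00391 at clustering resolution 1.6. KCNQ1OT1 from 2MPT to 4MPT became -0.44 without cluster 6 and the oligodendrocyte lineage. With 1 library left out, these differences took both signs: NNAT for 4MPT against D0 (-0.29 to 0.55) and, in neuron-like cells, for 2MPT against D0 (-0.22 to 0.15), and from 2MPT to 4MPT SNRPN (-0.14 to 0.15 over all, -0.0909 to 0.16 in neuron-like and -0.0701 to 0.26 in progenitor-like cells), KCNQ1OT1 (-0.71 to 0.96 over all, -1.19 to 0.15 in neuron-like, -0.37 to 0.80 in astrocyte-like and -0.0794 to 0.99 in progenitor-like cells), PEG10 in astrocyte-like cells (-0.66 to 0.27) and NNAT in progenitor-like cells (-0.94 to 0.12). The cause was not tested.

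Counts over all genes moved more. From 2MPT to 4MPT, 412 genes became 689 with DESeq2, 1362 with no filter, 1560, 86 and 143 without PFC_2MPT, HIP_4MPT and PFC_4MPT, and 212 without cluster 6 and the oligodendrocyte lineage. The share of higher calls was 78.2% and became 64.4%, 93.0% and 92.3% without those 3 libraries. For PFC against HIP, 9 genes became 30 at a human share over 0.9, 29 at a mitochondrial share under 0.10, 4 at over 1000 UMIs, 37 with no filter, 34 without cluster 6 and the oligodendrocyte lineage, and 0 without the stage covariate. In neuron-like cells 182 became 386 with DESeq2, 854 with no filter, 836 without PFC_2MPT and 316 without HIP_2MPT. In astrocyte-like cells 396 became 208, 668, 826 (without PFC_2MPT) and 161 (without HIP_4MPT), and in progenitor-like cells 112 became 355 with no filter, 263 without PFC_2MPT and 74 without HIP_4MPT. For 2MPT against D0 in progenitor-like cells 5169 became 3464 with DESeq2, with 57.7% and 67.4% higher.

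No paired analysis was possible because each group is 1 library and replicate numbers are only names, so none was run by replicate number. With the graft site as a block, which joins the stages within HIP and within PFC, 617 genes passed from 2MPT to 4MPT over all cells against 412, 345 against 182 in neuron-like and 38 against 112 in progenitor-like cells, and the counts of called members did not change, at 1 over all cells, 0 in neuron-like, 1 in astrocyte-like and 0 in progenitor-like cells. Leave-one-out fits of PFC against HIP could not be fitted. With 2 libraries per stage and 1 for D0, and few UMIs for MEG3, IGF2, H19 and PEG3, small differences could not be detected.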
